A study of Arabidopsis thaliana with 18 samples.

Results

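Transcript levels of PR1 (AT2G14610), PR2 (AT3G57260, listed in RefSeq as BGL2), PR5 (AT1G75040) and AIG1 (AT1G33960) were followed in Arabidopsis thaliana seedlings of 6 genotypes. These 4 defence genes were taken by identifier from the 33602 genes of the count table, and all 4 passed the filter on low counts that kept 18906 genes for testing. They were chosen by name with their levels in the 6 genotypes, and the differences between genotypes, already known. Their values are therefore given as a description with no p, and how many of them passed a threshold is not evidence about them. Whole seedlings of the Col-0 ecotype were grown on MS medium for 14 days at 22 °C in long days, without any infection or hormone treatment named in the labels, and each genotype had 3 libraries. The genotypes were Col-0 (wild type), atchz1ab, hta9hta11 (alleles hta9-1 and hta11-2), arp6 (allele arp6-1) and the combined lines atchz1ab hta9hta11 and atchz1ab arp6. HTA9 and HTA11 encode the histone variant H2A.Z, ARP6 encodes a part of the SWR1 complex, which puts H2A.Z into nucleosomes, and AtChz1 proteins are named after the yeast H2A.Z chaperone Chz1. The labels name no alleles for atchz1ab, and no complemented line was analysed here.

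The 4 genes are textbook outputs of plant immunity. Pathogen perception leads, through EDS1 and PAD4 and the enzyme ICS1, to synthesis of salicylic acid, which is bound by receptors of the NPR family that act with TGA and WRKY transcription factors. PR1, a small secreted cysteine-rich protein, PR2, a secreted beta-1,3-glucanase that cleaves a fungal wall polymer, and PR5, a secreted thaumatin-like protein, accumulate in leaves with salicylic acid and serve as markers of systemic acquired resistance. AIG1, whose name stands for a gene induced when the plant recognises the bacterial effector AvrRpt2, encodes a GTP-binding protein of another family.

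In the TAIR10.1 annotation PR1 lay on the minus strand at chr2:6241640-6242541 in 1 exon, and PR2 on the minus strand at chr3:21188397-21189967 in 2 exons. PR5 lay on the plus strand at chr1:28177670-28179022 in 2 exons, and AIG1 on the plus strand at chr1:12346138-12348733 in 6 exon blocks. None of the 4 overlapped another annotated gene. The encoded proteins differ in make-up, with 6 cysteines among 161 residues in PR1, 1 among 355 in PR2, 16 among 239 in PR5 and 5 among 377 in AIG1. The 250 bases before the starts of PR2, PR5 and AIG1 were read from the RefSeq genome (TAIR10.1) and are shown because these genes differed in response and the windows are the sequence nearest to their starts. They span chr3:21189968-21190217 (minus strand), chr1:28177420-28177669 (plus strand) and chr1:12345888-12346137 (plus strand). Each is printed 5′ to 3′ on the gene's strand, and capitals mark the W-box core described after them.
PR2: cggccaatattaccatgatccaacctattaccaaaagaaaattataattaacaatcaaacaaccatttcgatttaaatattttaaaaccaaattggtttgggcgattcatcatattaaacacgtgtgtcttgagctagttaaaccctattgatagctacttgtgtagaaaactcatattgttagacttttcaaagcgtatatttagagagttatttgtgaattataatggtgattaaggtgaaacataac
PR5: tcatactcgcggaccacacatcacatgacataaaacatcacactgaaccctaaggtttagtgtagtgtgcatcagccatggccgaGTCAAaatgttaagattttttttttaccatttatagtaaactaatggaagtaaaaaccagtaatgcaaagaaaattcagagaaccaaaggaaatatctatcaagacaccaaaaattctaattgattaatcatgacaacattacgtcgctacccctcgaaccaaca
AIG1: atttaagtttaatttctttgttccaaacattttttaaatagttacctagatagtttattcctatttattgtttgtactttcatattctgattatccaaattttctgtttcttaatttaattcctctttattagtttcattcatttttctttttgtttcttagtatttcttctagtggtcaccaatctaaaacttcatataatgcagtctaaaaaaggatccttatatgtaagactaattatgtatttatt

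In these windows 3 motifs were searched on both strands. The W-box core TTGAC, recognised by WRKY factors, stood once before PR5, on the opposite strand (read as GTCAA), 165 to 161 bases ahead of the start. The PR2 and AIG1 windows held no W-box core. The core was common, present in 44.9% of 27431 windows of the same length. The TGA factor core TGACG (18.6% of windows), which can overlap a W-box core in the letters TGAC, and the TL1 element GAAGAAGAA (4.13%), named for secretory pathway genes, matched in none of the 3. The windows were 70% A and T in PR2, 64% in PR5 and 77.2% in AIG1, beside a median of 68.8% over all windows. A match is only a run of letters, and elements farther from the start were not examined.

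Libraries held 7163359 to 10744318 counts. The mutated genes followed the labels. HTA11 stood at 0.831 ± 0.512 CPM in hta9hta11 and 0.811 ± 0.236 in atchz1ab hta9hta11 against 19.4 ± 1.64 in Col-0 (mean ± SD, n = 3 here and throughout). HTA9 reads were reduced but present, at 42.7 ± 1.68 against 93.2 ± 5.85 CPM, and ARP6 had 0 counts over the arp6 libraries and 1 over those of atchz1ab arp6. The AtChz1 genes were not checked here. Levels are CPM, counts per 1000000 after TMM scaling of library sizes. In whole seedlings, fewer cells of a type and less RNA per cell cannot be told apart. The summed level of 5 leaf marker genes was 29005 to 29207 CPM in the Col-0 libraries, 38322 to 38868 in arp6 and 34431 to 35765 in atchz1ab arp6. It stayed between 27637 and 28867 in the lines without arp6. The summed level of 8 root markers was 48.1 to 50.9 CPM in the Col-0 libraries and 53.9 to 59.9 in atchz1ab arp6, with 0 to 3 of the 8 at 0 counts in a genotype. No leaf marker was at 0. The part of the leaf marker levels in the results for the lines with arp6 was not tested.

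As a ratio of mean CPM, PR1 shared the widest range among the defence genes with AIG1. In Col-0 the PR1 level was 6.43, 5.14 and 7.62 CPM in the 3 libraries. In atchz1ab it was 0.436, 0.437 and 0.565 CPM, from 13 counts in all. These 2 sets of libraries lay far apart, and the mean was 13.3-fold higher in Col-0 (6.40 ± 1.24 against 0.480 ± 0.0740 CPM). In hta9hta11 PR1 stood at 1.06, 0.124 and 0.851 CPM, the middle value resting on 1 count. In atchz1ab hta9hta11 it stood at 0.634, 0.330 and 1.12 CPM. Both lines were low and overlapped each other, with Col-0 higher by 9.45-fold and 9.19-fold. In arp6 the level was 1.26, 0.889 and 0.949 CPM, 6.19-fold under Col-0. In atchz1ab arp6 it was 3.66, 2.94 and 3.88 CPM. This combined line thus lay above every library of the other mutant lines and below every Col-0 library, with Col-0 1.83-fold higher.

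PR2 was highest in Col-0 as well, at 11.5, 17.0 and 15.9 CPM. The lowest levels were those of arp6, at 1.68, 1.93 and 2.25 CPM, and of atchz1ab, at 1.75, 2.73 and 3.16 CPM. These lines overlapped each other, and Col-0 was 7.56-fold higher than the former and 5.80-fold higher than the latter. PR2 stood between these extremes in hta9hta11, at 4.22, 5.56 and 3.94 CPM. It was 6.89, 4.62 and 6.63 CPM in atchz1ab hta9hta11. It was 7.20, 4.95 and 5.27 CPM in atchz1ab arp6. The 3 middle lines overlapped in neighbouring pairs, and Col-0 was higher than each by 3.23-fold, 2.45-fold and 2.55-fold in that order.

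PR5 varied least of the 4. Its level was 6.80, 4.61 and 5.87 CPM in Col-0 and 5.28, 6.80 and 3.72 CPM in hta9hta11. These groups overlapped, with means of 5.76 ± 1.1 and 5.27 ± 1.54 CPM. It was 3.93, 3.06 and 4.18 CPM in atchz1ab, 3.53, 4.29 and 4.38 CPM in atchz1ab hta9hta11 and 2.65, 3.88 and 3.74 CPM in atchz1ab arp6. These 3 lines overlapped one another and lay below all Col-0 libraries. The lowest line was arp6, at 2.74, 2.22 and 2.49 CPM, with Col-0 2.32-fold higher.

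AIG1 had the fewest counts. Its level in Col-0 spread widely, at 2.60, 3.46 and 5.74 CPM. In atchz1ab it was 0.327, 0.219 and 0.339 CPM from 8 counts, and in arp6 0.421, 0.148 and 0.475 CPM from 9 counts. Both lines were near the limit of this depth and overlapped, with Col-0 higher by 13.3-fold and 11.3-fold. In atchz1ab arp6 the level was 0.632, 0.669 and 0.554 CPM from 14 counts, above both single lines but still 6.36-fold under Col-0. In hta9hta11 it was 1.06, 1.98 and 1.38 CPM, and in atchz1ab hta9hta11 2.18, 2.20 and 0.898 CPM. Those lines overlapped each other and kept an intermediate level, with Col-0 higher by 2.67-fold and 2.24-fold.

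**Figure D1:**
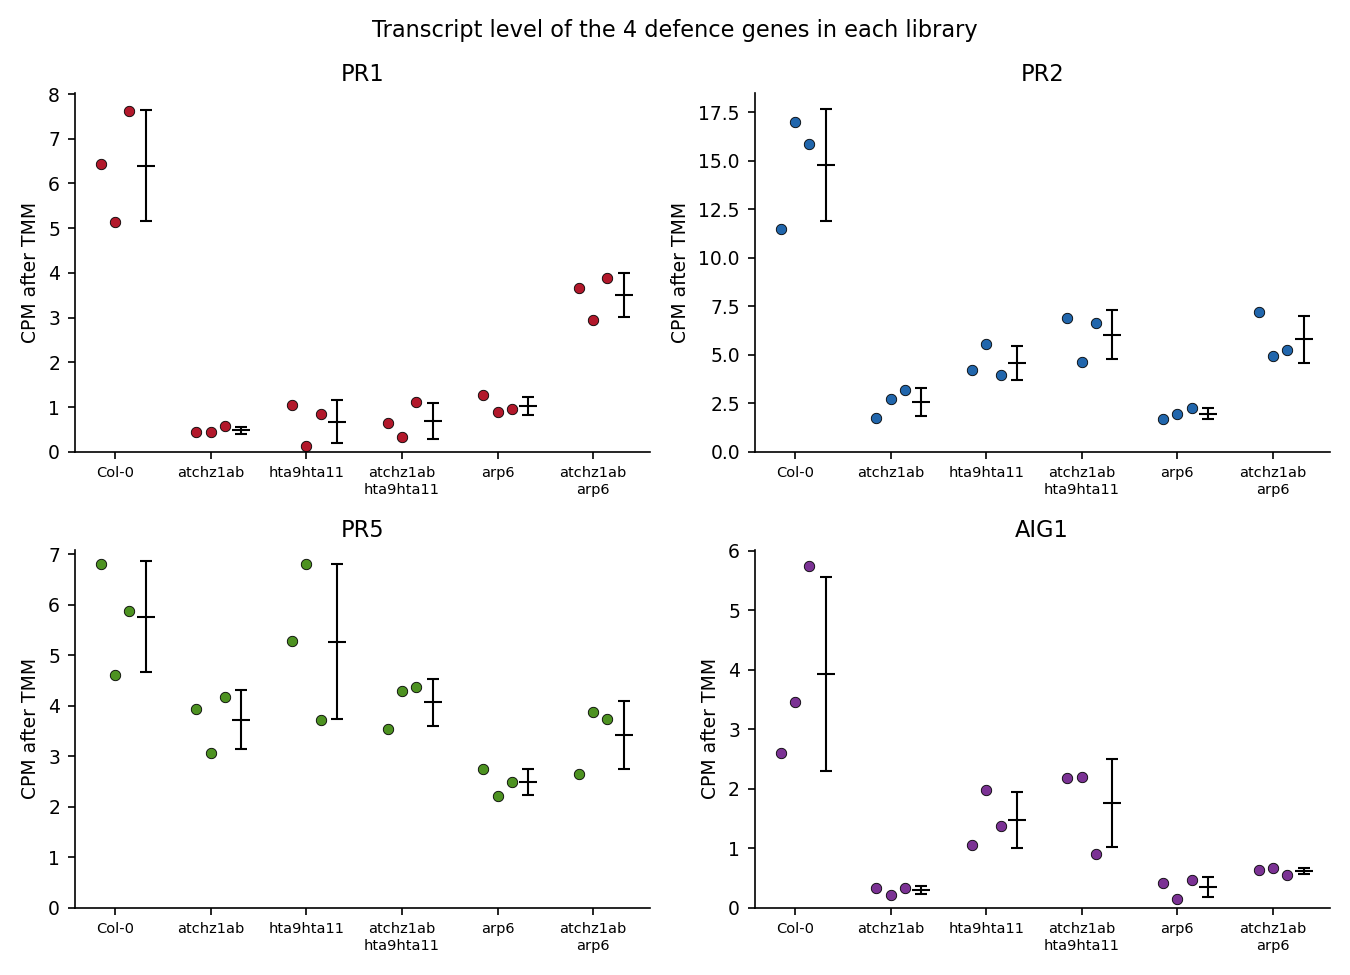
Level of each gene (vertical axis, CPM after TMM, from 0) in the 3 libraries of each genotype (points, replicates 1 to 3 from left to right), with mean ± SD beside them (n = 3). PR1 is high in Col-0 and partly so in atchz1ab arp6 (2.94 to 3.88 CPM), while PR5 falls least and overlaps between Col-0 and hta9hta11.

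Per kilobase of exon, the scale on which genes can be compared, the Col-0 levels were 10.01 ± 1.96 CPM per kb for PR2, 7.09 ± 1.38 for PR1, 5.26 ± 1.00 for PR5 and 2.23 ± 0.920 for AIG1. The order of the means was the same in atchz1ab arp6 and differed in the other 4 lines. In atchz1ab arp6, however, PR2 (3.93 ± 0.825), PR1 (3.88 ± 0.545) and PR5 (3.13 ± 0.614) overlapped within their SD. In arp6 PR5 led with 2.27 ± 0.236 CPM per kb, followed by PR2 at 1.32 ± 0.194 and PR1 at 1.15 ± 0.223, with AIG1 last at 0.197 ± 0.0991. As ratios of mean CPM, PR1 and AIG1 had the same range (13.3-fold). Log2 CPM was taken with a prior count of 2, which shrinks differences at low counts. On that scale the highest and lowest genotype means differed by 3.21 for PR1, 2.92 for AIG1, 2.77 for PR2 and 1.13 for PR5. These ranges stood at the 98.32, 97.85, 97.57 and 86.31 percentile of all tested genes, which is a description since the genes were chosen with these levels known.

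The order of the genotypes differed between the genes. Col-0 was highest for all 4. Counted from the highest, atchz1ab arp6 took rank 2 for PR1, rank 3 for PR2, rank 4 for AIG1 and rank 5 for PR5. The atchz1ab line was last for PR1 and AIG1, and arp6 was last for PR2 and PR5. For PR1 the neighbours from arp6 down to atchz1ab did not differ beyond their spread, whereas for AIG1 a gap without overlap separated hta9hta11 from atchz1ab arp6 and the latter from arp6. For PR5 every neighbouring pair overlapped. The genes were also set against each other by the root mean square (RMS) difference of their centred mean log2 CPM over the 6 genotypes. PR2 and AIG1 were the most alike pair (0.43), followed by PR2 and PR5 (0.65), PR5 and AIG1 (0.75) and PR1 and PR2 (0.84). PR1 was farther from AIG1 (1.16) and PR5 (1.18). In some groups the replicate spread exceeded counting error. The coefficient of variation of PR1 was 72.4% in hta9hta11, where counting alone gives 39.7%, and that of AIG1 was 41.3% in Col-0, where counting gives 17.3%. In PR1 of atchz1ab it was 15.4%, where counting gives 48.0%. Replicate 3 of atchz1ab was the highest library of its group for all 4 genes, and in the other 5 genotypes the highest library differed between the genes. The lowest library differed between the genes in all 6.

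Each mutant line was next compared with Col-0, which asks how the basal level of these outputs differed in each line. Whether a difference belongs to the named mutations or to the line was not tested. All 5 comparisons use the same 3 Col-0 libraries. In atchz1ab the log2 fold change was -3.69 ± 0.37 (SE) for PR1, -3.67 ± 0.46 for AIG1, -2.54 ± 0.20 for PR2 and -0.62 ± 0.22 for PR5, with a median of -3.1. PR1, PR2 and AIG1 passed an adjusted p of 0.05 in edgeR's quasi-likelihood test, a threshold under which 5.55% of all tested genes were lower and 6.15% higher in this line. In hta9hta11 the log2 fold change was -3.15 ± 0.34 for PR1, -1.71 ± 0.18 for PR2, -1.42 ± 0.34 for AIG1 and -0.13 ± 0.21 for PR5. The first 3 genes were called lower, beside 5.26% of all genes called lower and 5.98% called higher. AIG1 levels did not overlap between atchz1ab and hta9hta11, with 0.339 CPM the highest library of the former and 1.06 the lowest of the latter.

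In arp6 the log2 fold change was -3.38 ± 0.46 for AIG1, -2.92 ± 0.22 for PR2, -2.58 ± 0.33 for PR1 and -1.18 ± 0.25 for PR5. All 4 were called lower in a comparison where 25.5% of all genes were called lower and 24.2% higher. In atchz1ab hta9hta11 the values were -3.18 ± 0.34 for PR1, -1.29 ± 0.17 for PR2, -1.13 ± 0.32 for AIG1 and -0.50 ± 0.22 for PR5. The first 3 were called lower, beside 5.32% of all genes lower and 6.19% higher. In atchz1ab arp6 they were -2.63 ± 0.42 for AIG1, -1.35 ± 0.18 for PR2, -0.86 ± 0.26 for PR1 and -0.74 ± 0.24 for PR5. All 4 were called lower, beside 23.2% lower and 22.7% higher over all genes. No Col-0 library overlapped a mutant group for any of the 4 genes in these comparisons, except PR5 in hta9hta11. Genes lower than Col-0 without overlap made up 12.9% of all tested genes in atchz1ab, 12.6% in hta9hta11, 27.9% in arp6, 13.1% in atchz1ab hta9hta11 and 26.1% in atchz1ab arp6. Over all tested genes the median log2 fold change lay between -0.0161 and 0.00461 in the 9 comparisons of genotypes and the 2 interactions.

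**Figure D2:**
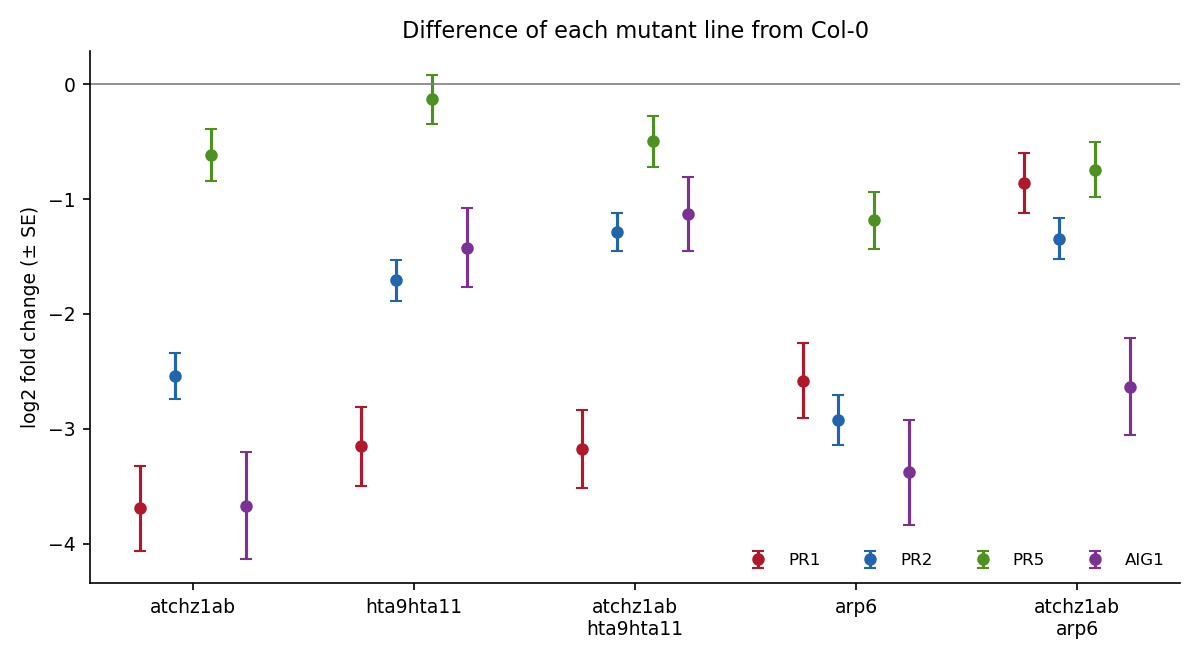
Log2 fold change of each gene against Col-0 (vertical axis, points with SE bars) in the 5 mutant lines. All points lie below 0, from -3.69 for PR1 in atchz1ab to -0.13 for PR5 in hta9hta11, and PR1 lies nearest to Col-0 in atchz1ab arp6 (-0.86).

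Genes that act before or beside these outputs were described by 10 lists of known pathway genes. The 7 lists around salicylic acid hold 58 genes, of which 51 were tested. In atchz1ab 21 of the 51 fell and 3 rose (edgeR, adjusted p under 0.05), with a median log2 fold change of -0.51. These are 41.2% and 5.88% of the list, beside 5.55% and 6.15% of all tested genes. The fall was widest among other outputs of salicylic acid, where 9 of 11 genes fell with a median of -1.71. LURP1, needed for resistance to an oomycete, fell by 2.49 on the log2 scale (9.74 ± 1.37 to 1.73 ± 0.654 CPM, adjusted p = 1.02e-17). AED1, an aspartyl protease homologue of systemic immunity, fell by 1.97 (adjusted p = 2.07e-15) and PCC1 by 1.80 (1.5e-19). Among the earlier steps ACD6, a membrane protein that promotes salicylic acid accumulation, fell from 43.6 ± 2.14 to 16.9 ± 2.06 CPM (adjusted p = 6.29e-27). Turnover genes also fell, DMR6, a hydroxylase of salicylic acid, by 1.11 (adjusted p = 1.16e-08) and UGT74F2, which attaches glucose to it, by 0.76 (2.3e-32). UGT76B1, another glucosyltransferase of immune signals, fell by 1.68 (adjusted p = 5.47e-11). EPS1, an enzyme of the last step of salicylic acid synthesis, rose by 1.41 ± 0.41 (adjusted p = 0.0108).

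In hta9hta11 16 of the 51 genes fell (31.4%, beside 5.26% of all tested genes), with a median of -0.32. By edgeR or DESeq2 0 rose, while 3 were higher at an unadjusted p under 0.05. LURP1 fell by 2.51 (adjusted p = 1.36e-17) and PCC1 by 1.57 (1.21e-16). GRXC9, a glutaredoxin that works with TGA factors, fell from 2.78 ± 0.442 to 0.401 ± 0.396 CPM (adjusted p = 2.8e-06). WRKY factors of the salicylic acid response fell in 5 of 6 tested cases, among them WRKY54 by 1.38 (adjusted p = 7.19e-06), WRKY46 by 1.15 (0.00727) and WRKY40 by 0.78 (0.000115). ACD6 stood at 16.5 ± 0.539 CPM, a fall of 1.40 (adjusted p = 1.91e-27). In atchz1ab hta9hta11 14 fell (27.5%, beside 5.32% of all genes) and 2 rose (3.92%, beside 6.19%), with a median of -0.36. ACD6 was lower still at 11.9 ± 0.740 CPM, and LURP1 fell by 2.56 (adjusted p = 2.01e-18). The genes that rose were EPS1 by 1.34 (adjusted p = 0.0177) and SAG101, a partner of EDS1, by 0.48 (0.00978).

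In arp6 22 of the 51 genes fell and 13 rose, with a median of -0.11. These are 43.1% and 25.5% of the list, beside 25.5% of all tested genes lower and 24.2% higher, so the share that rose was near the background. PCC1 rose to 39.7 ± 2.07 from 15.7 ± 2.77 CPM (adjusted p = 6.79e-23) and BDA1, an ankyrin-repeat protein of immunity, to 6.93 ± 0.745 from 1.39 ± 0.164 (6.62e-12), while LURP1 was at 9.11 ± 0.873 against 9.74 ± 1.37 (adjusted p = 0.61). GRXC9 had 0 counts over the arp6 libraries against 72 over those of Col-0, at least 23.1-fold lower with the floor of 3 counts over the group. AZI1, a lipid-transfer-like protein of systemic priming, fell from 11.2 ± 1.05 to 1.91 ± 0.606 CPM (adjusted p = 2.29e-19). WRKY40 fell by 3.51 (adjusted p = 1.78e-26) and UGT76B1 by 3.59 (1.3e-22). In turnover DMR6 rose to 18.7 ± 0.771 from 11.2 ± 1.2 CPM (adjusted p = 5.21e-07), whereas UGT74F2 fell by 1.79 (2.74e-64). In atchz1ab arp6 16 fell (31.4%, beside 23.2% of all genes) and 11 rose (21.6%, beside 22.7%), with a median of 0.00281. BDA1 rose to 6.97 ± 1.90 CPM (adjusted p = 9.08e-12) and CRK36, a cysteine-rich receptor-like kinase, fell by 2.25 (0.000225).

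The 3 lists outside salicylic acid were endoplasmic reticulum secretion, outputs of jasmonate and ethylene, and pattern-triggered immunity. The jasmonate and ethylene list had 4 of 10 tested genes lower in atchz1ab, 6 in hta9hta11 and 7 in arp6. Over all tested genes 5.55%, 5.26% and 25.5% were lower in these lines. Of the list 0, 0 and 2 genes were called higher, beside 6.15%, 5.98% and 24.2% of all tested genes. PR4, a chitin-binding protein, fell from 58.3 ± 2.13 to 31.6 ± 1.47 CPM in atchz1ab (adjusted p = 2.16e-17). The defensin gene PDF1.2A fell by 1.43 in atchz1ab (adjusted p = 9.81e-12) and by 1.98 in hta9hta11 (3.8e-17), although near-identical defensin genes may share reads. The thionin gene THI2.1 had 331 counts over the arp6 libraries against 1 in Col-0, a ratio of 344 with a 95% counting interval of 61.3 to 13600. Of the pattern-triggered list PAD3, the last enzyme of camalexin synthesis, fell from 8.04 ± 0.463 CPM in Col-0 to 3.01 ± 0.394 in atchz1ab (adjusted p = 9.69e-07), 2.22 ± 0.630 in hta9hta11 (1.27e-09) and 0.293 ± 0.164 in arp6 (6.42e-22). In the secretion list CRT3, a calreticulin that folds an immune receptor, fell from 54.5 ± 2.26 to 9.29 ± 2.34 CPM in atchz1ab (adjusted p = 9.83e-51). It was at 51.8 ± 1.04 CPM in atchz1ab hta9hta11 and 65.9 ± 2.77 in atchz1ab arp6, which carry the same atchz1ab label.

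**Figure D3:**
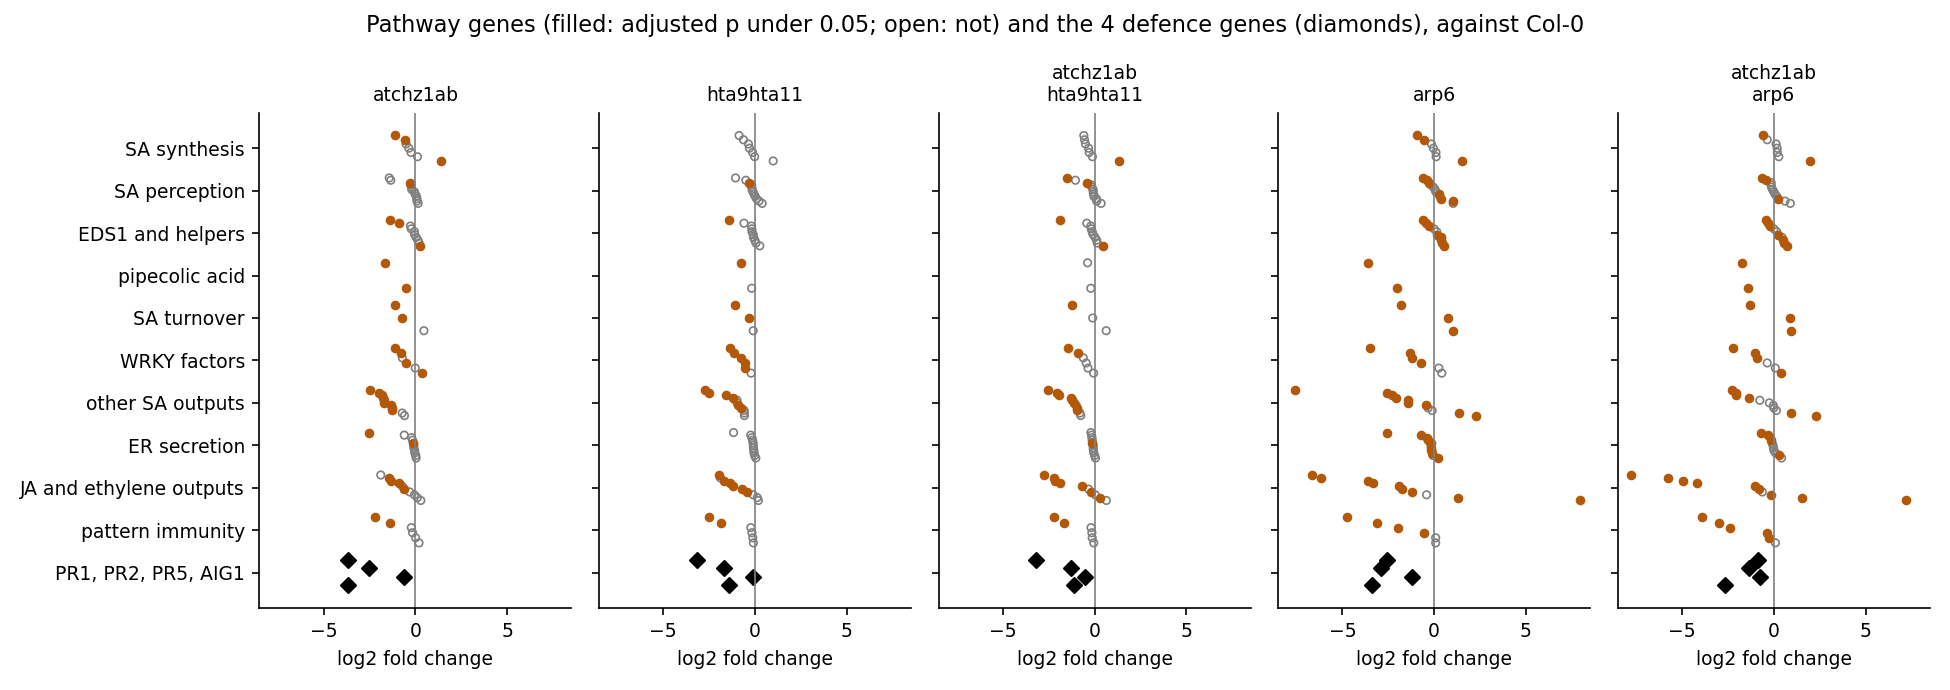
Log2 fold change against Col-0 (horizontal axis) of every tested gene in the 10 pathway lists (rows, SA for salicylic acid, JA for jasmonate, ER for endoplasmic reticulum) in the 5 mutant lines, with filled points for an adjusted p under 0.05 and diamonds for PR1, PR2, PR5 and AIG1. Other outputs of salicylic acid lie mostly below 0 in atchz1ab (median -1.71), and points beyond -5 or 5 rest on groups with few counts, whose fitted values depend on the prior count.

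Of 8 regulators followed whatever their values, the differences from Col-0 were smaller than those of PR1, PR2 and AIG1 in each of the 5 lines. For PR5 this held in arp6 and atchz1ab arp6 only. In hta9hta11 PR5 differed by -0.13 and SARD1 by -0.87, and in atchz1ab PR5 differed by -0.62 and SARD1 by -1.09. The defence genes were chosen with their levels known, so their larger differences are a description. In atchz1ab ICS1, the enzyme that starts salicylic acid synthesis, fell by 0.59 (10.9 ± 0.903 to 7.30 ± 0.688 CPM, adjusted p = 0.00365). SARD1, a transcription factor that activates ICS1, fell by 1.09 (adjusted p = 0.0281), PAD4 by 0.88 (0.00506) and WRKY70 by 0.80 (4.8e-06). WRKY70 was also lower in hta9hta11 (fell by 0.57, adjusted p = 0.00158) and in atchz1ab hta9hta11 (fell by 0.92, 1.67e-07). In arp6 the picture was another one. CBP60g, the relative of SARD1, fell from 10.9 ± 1.99 to 5.73 ± 1.43 CPM (adjusted p = 9.13e-07), and the receptor gene NPR1 rose by 0.27 (0.00623). ICS1 stood at 12.02 ± 2.93 CPM in arp6 and did not pass the test (0.11 ± 0.14, adjusted p = 0.563), nor did PAD4 (-0.01 ± 0.22, adjusted p = 0.98). In atchz1ab arp6 WRKY70 rose by 0.39 (adjusted p = 0.00785) and CBP60g fell by 0.59 (0.00157). EDS1 and EDS5, the latter a transporter of the pathway, came nearest to the threshold in atchz1ab arp6 against atchz1ab (edgeR adjusted p = 0.0704 and 0.0622).

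**Figure D4:**
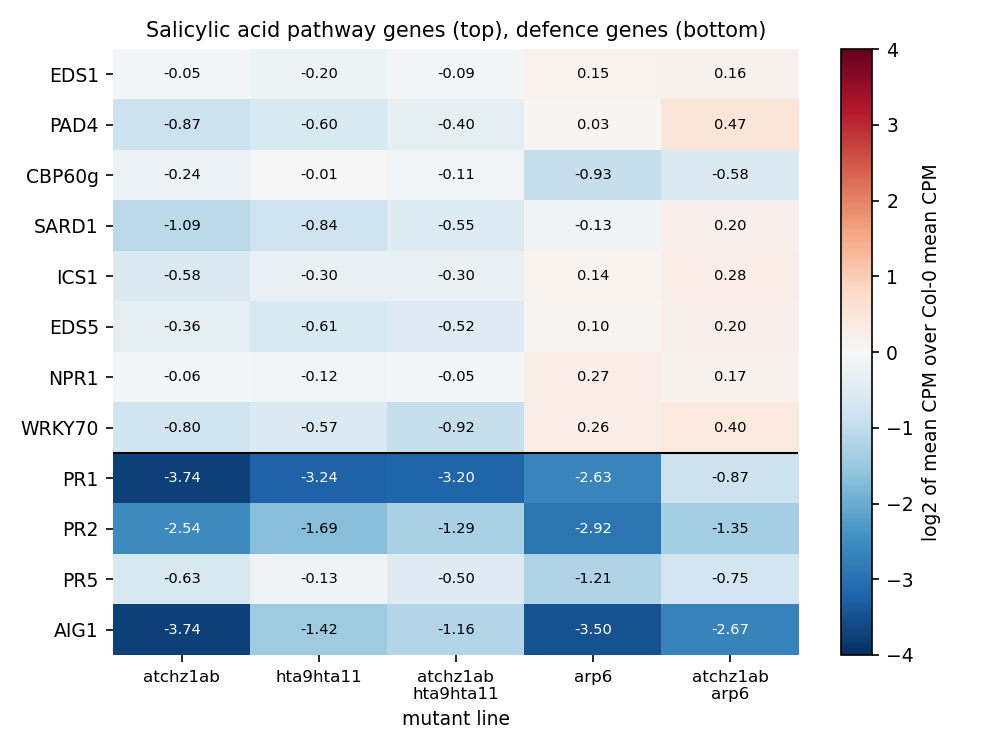
Log2 of the ratio of mean CPM to that of Col-0 (colour and printed value) for 8 salicylic acid pathway genes (upper rows) and the 4 defence genes (lower rows) in the 5 mutant lines. The pathway genes range from -1.09 to 0.47, while PR1 ranges from -3.74 to -0.87 and PR5 from -1.21 to -0.13. Several pathway genes are at or above Col-0 in the lines with arp6.

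The combined lines ask whether adding atchz1ab to a line that carries the hta9hta11 or arp6 mutations changes these outputs. In the hta9hta11 background the log2 difference was -0.03 ± 0.51 for PR1, 0.42 ± 0.20 for PR2, -0.37 ± 0.22 for PR5 and 0.29 ± 0.38 for AIG1. All 4 genes overlapped between the lines and 0 were called by edgeR or DESeq2, with 1 at an unadjusted p under 0.05, beside 0.793% of all genes called higher and 0.952% called lower, and 7.78% of all genes higher without overlap. The salicylic acid lists likewise had 1 gene higher, UGT74F2 (0.22 ± 0.04, adjusted p = 0.000136), and 1 lower, ACD6 (-0.46 ± 0.11, adjusted p = 0.00723). In the arp6 background PR1 was higher by 1.72 ± 0.36, PR2 by 1.58 ± 0.26, AIG1 by 0.74 ± 0.67 and PR5 by 0.44 ± 0.28. PR1 and PR2 were called higher, beside 6.63% of all genes called higher and 8.01% called lower, and the libraries overlapped for PR5 alone of the 4. Over all genes 12.9% were higher without overlap, and AIG1 lay apart without being called. Among the 51 genes of the salicylic acid lists 8 rose and 1 fell, with a median of 0.15. UGT76B1 rose from 0.774 ± 0.161 to 3.57 ± 1.17 CPM (adjusted p = 2.47e-07), AZI1 from 1.91 ± 0.606 to 4.36 ± 1.06 (0.000377) and WRKY40 by 1.28 (0.00381). GRXC9 had 15 counts over the combined line against 0 in arp6, at least 5.46-fold higher with the same floor. Secretion genes rose in 4 of 11 cases, among them BIP1, a chaperone of the endoplasmic reticulum, by 0.24 (adjusted p = 8.44e-10).

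The interaction sets the difference between lines with and without atchz1ab in a mutant background against the one in Col-0. The interactions with hta9hta11 and arp6 share the same atchz1ab and Col-0 libraries, so they are not independent of each other. For hta9hta11 the estimate on the log2 scale was 3.67 ± 0.68 for PR1, 3.96 ± 0.62 for AIG1, 2.96 ± 0.29 for PR2 and 0.25 ± 0.32 for PR5. For arp6 it was 5.41 ± 0.53 for PR1, 4.41 ± 0.87 for AIG1, 4.12 ± 0.33 for PR2 and 1.06 ± 0.36 for PR5. PR1 had 13 counts in atchz1ab and 19 in hta9hta11, and AIG1 had 8 in atchz1ab and 9 in arp6. Such low counts leave almost no room for a further fall, which can raise an estimate on the log2 scale. The part of this floor in the estimates was not tested. The first interaction called 3 of the 4 genes beside 7.15% of all genes in either direction, and the second all 4 beside 13.7%. Of the 51 salicylic acid list genes 11 (21.6%) had a positive interaction with hta9hta11 (edgeR, median over the 51 of 0.43), and 21 (41.2%) had one with arp6 (median 0.69). In each interaction 0 were called negative by edgeR, with 0 and 2 negative at an unadjusted p under 0.05. Of all 18906 tested genes 645 were called positive and 707 negative with hta9hta11. With arp6 1207 were called positive and 1390 negative. LURP1 had an interaction of 2.45 ± 0.41 with hta9hta11 (edgeR adjusted p = 1.21e-06), and UGT76B1 one of 3.86 ± 0.40 with arp6 (1.87e-14). Of the 8 regulators PAD4 (1.34 ± 0.32, adjusted p = 0.000851), WRKY70 (0.94 ± 0.19, 6.66e-05), ICS1 (0.76 ± 0.21, 0.00603) and SARD1 (1.43 ± 0.48, 0.0303) were called positive with arp6. With hta9hta11 PAD4 alone was called (1.06 ± 0.34, edgeR adjusted p = 0.0359).

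**Figure D5:**
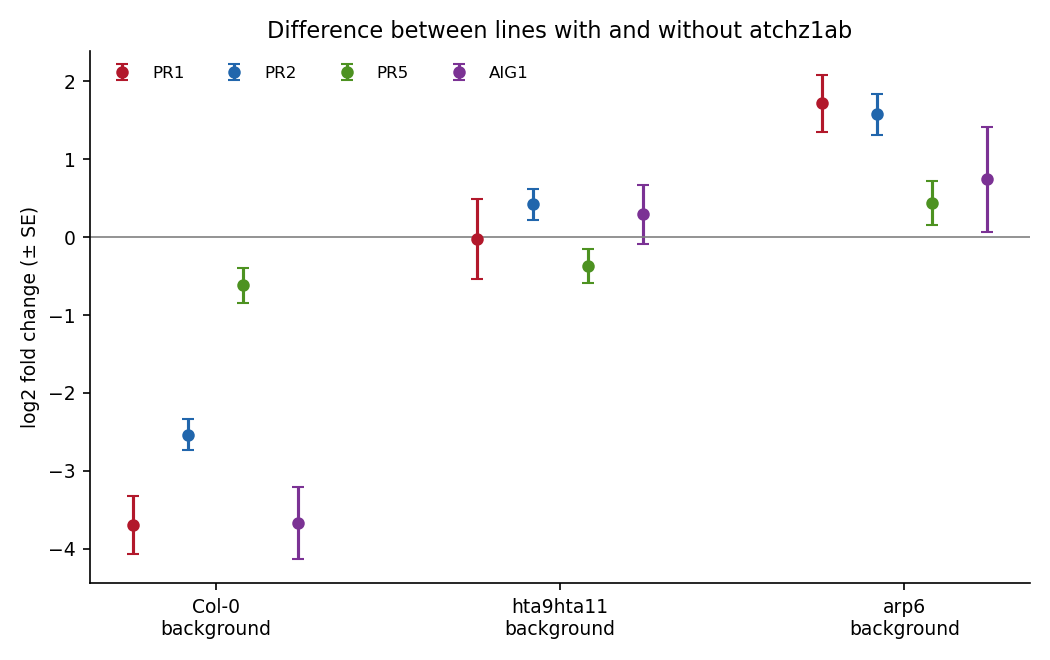
Log2 fold change between lines with and without atchz1ab (vertical axis, points with SE bars) in the Col-0, hta9hta11 and arp6 backgrounds. PR1, PR2 and AIG1 lie at -3.69, -2.54 and -3.67 in Col-0, near 0 in hta9hta11, and at 1.72, 1.58 and 0.74 in arp6.

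Read from the other side, the combined lines were compared with atchz1ab. In atchz1ab hta9hta11 AIG1 was higher than in atchz1ab by 2.54 ± 0.53 and PR2 by 1.25 ± 0.23, while PR1 (0.51 ± 0.56) and PR5 (0.12 ± 0.23) overlapped. AIG1 and PR2 were called higher, beside 5.46% of all genes higher and 5.16% lower, and 12.9% higher without overlap. In the salicylic acid lists 6 genes rose and 4 fell, UGT76B1 rising by 1.29 (adjusted p = 1.17e-06) and AED1 by 1.01 (0.000313). In atchz1ab arp6 PR1 was higher than in atchz1ab by 2.83 ± 0.42, PR2 by 1.19 ± 0.24 and AIG1 by 1.04 ± 0.69, while PR5 differed by -0.13 ± 0.25. PR1 and PR2 were called higher, beside 22.2% of all genes higher and 22.6% lower. The libraries overlapped for PR5 alone, and AIG1 lay apart without being called, beside 25.1% of all genes higher without overlap. Here 21 of the 51 list genes rose (41.2%) and 10 fell (19.6%), with a median of 0.27. LURP1 rose by 2.64 (adjusted p = 6.33e-20), PCC1 by 2.76 (3.34e-38) and BDA1 by 4.05 (4.13e-19). The regulators ICS1 (0.86, adjusted p = 7.9e-07), SARD1 (1.28, 0.00177), PAD4 (1.34, 4.53e-07) and WRKY70 (1.19, 7.28e-13) rose as well.

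Relatives of the 4 genes were examined because near copies could share reads. PRB1 (AT2G14580), 15412 bases from PR1 and 77.6% identical to it over the protein, fell in the 5 mutant lines, from 2.71 ± 0.903 CPM in Col-0. It was lowest in atchz1ab arp6, at 0.126, 0.401 and 0.139 CPM (log2 fold change -3.51 ± 0.58, adjusted p = 1.02e-07), the line in which PR1 was nearest to Col-0. In atchz1ab its libraries overlapped those of Col-0 (-1.31 ± 0.40, adjusted p = 0.0144). Beside PR2, the glucanase genes BG3 (64.8% identical, 5252 bases away) and BG1 (58.2%, 1269 bases) had at most 20 and 1 counts per genotype. Beside PR5, TLP-3 (73.6%, 2213 bases) had 8 to 26 counts and AT1G75050 (76.2%, 1034 bases) at most 8. Near AIG1, AT1G33950 (55.3%, 5728 bases) had 1 count in all. AT1G33970 (45.9%, 570 bases) stood between 75.9 ± 2.44 and 82.7 ± 3.81 CPM in every genotype with 0.0762 as the lowest adjusted p over the 9 comparisons (edgeR), while AIG1 next to it ranged from 0.295 to 3.93 CPM. AT1G33930 (54.2%, 18826 bases) rose in arp6 by 0.68 ± 0.25 (adjusted p = 0.0172) and in atchz1ab arp6 by 0.65 ± 0.25 (0.0295). Over whole families, 4 of 21 PR1 relatives, 2 of 11 of PR2, 13 of 17 of PR5 and 3 of 12 of AIG1 passed the filter on low counts.

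The tested genes whose pattern over the 6 genotype means was nearest, by the same RMS difference, are a description of likeness and no more. PR2 was nearest to CHI (AT2G43570), a chitinase gene, at 0.24. CHI had 9.59 CPM in Col-0, and its lowest means were 1.80 CPM (arp6) and 2.29 CPM (atchz1ab). AIG1 was nearest to HSP17.4 (AT3G46230), a small heat shock protein gene, at 0.25, ahead of AT5G20790 at 0.30 and WAK3 (AT1G21240), a wall-associated kinase gene, at 0.32. PR5 was nearest to AT4G35500 at 0.07, ERD10 (AT1G20450), a dehydrin gene, at 0.08, PPCK1 (AT1G08650), a kinase of phosphoenolpyruvate carboxylase, at 0.10 and HAI1 (AT5G59220), a phosphatase gene of abscisic acid signalling, at 0.11. PR1 had no neighbour that close. Its nearest, PCR1 (AT1G14880), was 0.65 away, at 2.14 CPM in Col-0, 0.403 in atchz1ab and 1.02 in atchz1ab arp6, and LURP1 took rank 4 at 0.70. PR5, with the smallest range, had 5 neighbours within 0.11.

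PR genes also rise as leaves age, so 8 senescence markers were followed. SAG12, the defining marker of late senescence, had 0 counts in all 18 libraries. The summed level of the list was 174 to 190 CPM in the Col-0 libraries, 173 to 184 in atchz1ab and 196 to 204 in hta9hta11. It was lower in arp6 (87.1 to 89.7) and atchz1ab arp6 (115 to 120). In arp6 5 of the 7 tested markers fell and 1 rose, beside 25.5% of all tested genes lower and 24.2% higher. In atchz1ab 2 fell and 1 rose, beside 5.55% lower and 6.15% higher. SAG13 fell with the defence genes, from 17.2 ± 1.68 CPM in Col-0 to 3.65 ± 1.59 in atchz1ab (adjusted p = 3.43e-20), 6.04 ± 0.0967 in hta9hta11 (7.81e-13) and 0.325 ± 0.376 in arp6 (4.36e-35). SEN1, a gene induced by darkness, rose to 92.6 ± 2.98 from 54.1 ± 6.89 CPM in atchz1ab (adjusted p = 6.35e-24). On the log2 scale SEN1 rose by 0.95 in hta9hta11 (edgeR adjusted p = 3.07e-31) and fell by 0.52 in arp6 (5.12e-11). SAG29 rose by 1.53 in arp6 (edgeR adjusted p = 8.12e-09). Seed markers summed to 14.7 ± 2.46 CPM in Col-0, 31.0 ± 1.49 in atchz1ab, 55.7 ± 2.56 in hta9hta11, 88.7 ± 1.41 in atchz1ab hta9hta11, 14.9 ± 0.131 in arp6 and 7.32 ± 0.863 in atchz1ab arp6. In a genotype at most 1 of the 6 seed markers was at 0 counts. The part of senescence or seed gene levels in the results for the 4 defence genes was not tested.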

How the data were processed

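RNA from 18 libraries (6 genotypes, 3 libraries each) was extracted with a plant column kit and made into libraries with a stranded mRNA kit, per the labels' protocols. The authors deposited 1 table of raw read counts per gene, without normalization, and cutadapt, HISAT2, SAMtools and featureCounts with the build TAIR10 are named per the submitters' processing notes. Their settings, and the strandedness of counting, were not given in the sources used here. Coordinates, which this table lacks, come from RefSeq's TAIR10.1, which has the same nuclear chromosome sequences under another annotation release, and which matched 32835 of the 33602 identifiers. The upstream window of PR1 is not reported here.

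Counts were tested with edgeR 4.0.16 in R 4.3.3 (limma 3.58.1), using the quasi-likelihood test, TMM scaling, filterByExpr and 1 fit over all libraries with 1 term for genotype and no covariate (residual degrees of freedom, 12). The 18906 genes tested hold 99.905% of all counts. Adjusted p is Benjamini-Hochberg over all of them, with calls under 0.05. There were 9 comparisons of genotypes and 2 interactions. Standard errors were taken from the test statistic. Levels are CPM after TMM, as mean ± SD. A group with 0 counts is given as a bound against 3 counts over the group, and one with 1 to 3 counts as a ratio with an exact 95% interval. These cover counting error only, since reads carried no molecular identifiers and may be copies of 1 molecule. The fit was tested on simulated data, with changes set only in genes of higher mean counts than PR1 or AIG1. That test does not cover levels as low as theirs. Replicate pairs differed by more than sampling noise, but the coefficient of variation beyond counting, common to all genes in the fit, was 3.08%. No label states separate growth or extraction of replicates. Every p-value therefore measures the spread among these libraries alone, and that spread may be technical. Alternatives were RLE scaling, library totals, 2 other filters, DESeq2 1.42.0, a fit of only the groups compared, a replicate block, and leaving out each library. DESeq2 used a local dispersion trend.

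The 4 genes and the pathway, family and marker lists were chosen with earlier results of these data known. Beside the 4 genes, the text names from each pathway list up to 3 genes with the largest log2 fold change among those past the threshold without overlap, 8 regulators whatever their values, up to 3 genes per interaction, family members within 20 kb or nearest in protein identity, the 5 genes of nearest pattern per defence gene and the mutated genes. Levels of such genes in other lines, other interactions of the regulators, and the senescence markers were chosen after their values were seen. Protein identity was computed from the translated coding sequence over the shorter protein.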

Additional observations from a re-analysis of the deposited data

Results flagged for a closer look

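For PR1, PR2 and AIG1 every atchz1ab library lay below every Col-0 library, and every atchz1ab arp6 library lay above every arp6 library. The interaction estimates on the log2 scale were 5.41 for PR1, 4.12 for PR2 and 4.41 for AIG1. For AIG1 the second difference (0.74 ± 0.67) rested on 14 against 9 counts and was not called. With only the groups compared it was lost to the filter on low counts. So few counts leave almost no room for a further fall, which can raise the AIG1 estimate. The fit over all genes called these 3 interactions, but the genes were chosen with these values known, so no p is given and the calls are no independent test of the difference.

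In the pathway lists the interaction of atchz1ab with hta9hta11 was tested by edgeR and passed with the estimates of 2.57 for CRT3 (SE 0.12, adjusted p = 2.55e-40), 2.49 for CYP71A13, an enzyme of camalexin synthesis (SE 0.80, adjusted p = 0.0364), and 2.45 for LURP1 (SE 0.41, adjusted p = 1.21e-06). CRT3 was low in the atchz1ab line (9.29 ± 2.34 CPM) and at 51.8 ± 1.04 and 65.9 ± 2.77 CPM in the combined lines, which carry the same atchz1ab label. Whether its fall belongs to the atchz1ab mutations or to that line was not tested. Counts of CYP71A13 summed to 66 in Col-0, 15 in atchz1ab, 12 in hta9hta11 and 16 in the combined line.

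With arp6 the interaction passed for GRXC9 at 6.16 (adjusted p = 0.000379), UGT76B1 at 3.86 (1.87e-14) and PNP-A, a secreted natriuretic peptide, at 3.8 (0.00108). The GRXC9 estimate depends on the prior count, because arp6 had 0 counts of this gene, and PNP-A had 6 counts over the arp6 libraries.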

How the results depend on the processing

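No result changed direction among the called log2 fold changes and counts under the alternatives run. Scaling by RLE or library totals, the filters, DESeq2 and the replicate block left the number of the 4 defence genes called within 1.5 times in all 9 comparisons, although DESeq2 called 2 in place of 3 in atchz1ab hta9hta11 against Col-0. With only the groups compared, 1 of them was called in atchz1ab hta9hta11 against atchz1ab in place of 2, as the filter on low counts then dropped AIG1, and 5 of their values (PR1 or AIG1) were lost this way. Leaving out a library gave 3 to 4 called in atchz1ab and in atchz1ab arp6, and 2 to 3 in hta9hta11 and in atchz1ab hta9hta11, each against Col-0. PR1 in atchz1ab hta9hta11 against atchz1ab came to 0.05 without replicate 3 of the former (0.51 with it), and AIG1 in atchz1ab arp6 against atchz1ab to 0.87 without replicate 2 of atchz1ab (1.04 with it). Genes called in atchz1ab hta9hta11 against hta9hta11 numbered 330, and 219 to 249 with a library left out (219 without replicate 1 of the combined line), where fewer samples enter. Salicylic acid list genes higher in that comparison numbered 2 by library totals and with only the groups compared (1 otherwise), and lower ones 0 to 1 with a library left out (0 without hta9hta11 replicate 1 or combined replicate 2). In atchz1ab arp6 against arp6, 5 in place of 8 were higher with only the groups compared, and 5 to 8 with a library left out (5 without arp6 replicate 3). Leaving out a library also gave 0 to 2 higher in atchz1ab hta9hta11 against Col-0 (0 without Col-0 replicate 3, 1 without Col-0 replicate 2 or combined replicate 3), 3 to 5 higher (3 without combined replicate 3) and 2 to 4 lower (2 without atchz1ab replicate 1) in atchz1ab hta9hta11 against atchz1ab, where 6 and 4 stood, and 6 to 12 lower in atchz1ab arp6 against atchz1ab, where 10 stood (6 without atchz1ab replicate 1). The causes were not tested except as stated. The genotype order of each defence gene was the same by library totals. Counts of 8 to 26 in the lowest groups limit PR1 and AIG1.

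Replicate numbers are shared by the groups, but same-numbered libraries did not deviate together, with correlations of -0.0267 to 0.0296 over 45 pairs, and 3 libraries correlated best with their own number. With the replicate block 2196 genes were called in atchz1ab against Col-0 in place of 2211, and 324 in atchz1ab hta9hta11 against hta9hta11 in place of 330, and no count moved by over 1.5 times.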
